A study of Larix kaempferi with 6 samples.

Results

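The abundant transcripts of Japanese larch shoot tips that stayed level through drought were taken as those with at least 150 FPKM in every library and a limited ratio of the highest library to the lowest. The ratio limit was 1.8 when rounded to 2 digits, and it fell between the widest member, at 1.7448, and the nearest transcript outside, at 1.7505. FPKM is a relative level, the number of sequenced fragments corrected for the length of the transcript and the size of the library. This rule kept 248 of 12228 transcripts (2.03%). It used all 6 measured values of each transcript, so the levels, ranges and spreads below describe the choice and carry no test.

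The libraries came from the upper 3 cm of Larix kaempferi seedlings, a deciduous conifer, at 4 months of age. The drought group (3 libraries) was left without water for 14 d, and the control group (3 libraries) was watered throughout. All seedlings had grown singly in greenhouse pots in soil held at 70% of field capacity or wetter. The labels name no genotype or seed source and do not say whether each library is a separate plant, so the spread between libraries may be partly technical. The transcripts are long-read consensus sequences known here by identifier only. The files pair them with no gene names, so the label "level" rests on the values and no function, sequence or position is given for any transcript.

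In plant cells a large part of the messenger RNA comes from a small number of genes, and in green tissue many of these serve photosynthesis and protein synthesis. Genes whose transcripts hold a steady level across treatments are used as internal references in quantitative PCR, where a target is read as a ratio to the reference. Actins, tubulins, ubiquitins and elongation factors are the usual choices in plants, and their steadiness is checked anew for each tissue and stress. A reference is useful when it is easily detected, varies little among replicates, and has about the same level with and without the treatment. The 248 transcripts are described below on these 3 properties, and then by length.

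FPKM values summed to 1037936 to 1169511 in the drought libraries and to 1074213 to 1237913 in the controls, the highest sum being that of control 3. The steps between low values correspond to about 12500000 to 14800000 fragments in the drought libraries and 13700000 to 17400000 in the controls. These depths are estimates, because 64.5% to 70.9% of the low values examined came out as whole fragments within 0.1. With lengths shuffled among transcripts the share was 19.2% to 21.6%. Each depth was chosen to make the unshuffled share as large as possible, so that share is no independent check. By these estimates the weakest member value in a library rested on 610 to 800 fragments, which gives a counting error of 3.53% to 4.05%. The median member rested on 3110 to 4190 fragments, with a counting error of 1.55% to 1.79%. Counting error does not include PCR copies or fragments shared between similar transcripts. Controls 1 and 2 lay very close together, with a variance over the members 3.09 times that of counting, against 34.3 to 142 times in the other pairs within a group. Both carry their own sample label, and both were used.

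Of the abundant transcriptome 34.7% stayed level by this rule, and the answer depended on what was called abundant. Of the 715 transcripts at 150 FPKM or more in every library, 248 were level and 467 were not. Set against the 1368 transcripts with a mean of at least 150 FPKM the 248 made up 18.1%, and against the 2148 that reached 150 FPKM in any library 11.5%. The wider denominators include transcripts that drop below 150 FPKM in some library and so could not be members.

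The range of the 715 abundant transcripts was broad. The ratio of the highest to the lowest library ran from 1.11 to 28.6, with a median of 2.02 and quartiles of 1.62 and 2.94. Only 20 of the 715 (2.80%) stayed below a ratio of 1.3 and 112 (15.7%) below 1.5, while 348 (48.7%) stayed below 2. At the other end 172 (24.1%) had a ratio of 3 or more and 27 (3.78%) of 8 or more. The rule therefore sits in the steep part of this distribution, and its count moves quickly with the limit.

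The share of level transcripts was highest at intermediate abundance and low at the top. With classes set by the lowest of the 6 values, 84 of 221 transcripts (38.0%) were level at 150 to under 200 FPKM, 65 of 186 (34.9%) at 200 to under 300 FPKM, and 79 of 180 (43.9%) at 300 to under 600 FPKM. Above that, 17 of 75 (22.7%) were level at 600 to under 1200 FPKM and 3 of 53 (5.66%) at 1200 FPKM or more, where the median ratio of highest to lowest was 2.97. The most abundant transcripts of the shoot tip were thus mostly outside the level set. The same ratio limit applied below 150 FPKM gave 31.8% of 409 transcripts at 100 to under 150 FPKM, 30.5% of 1238 at 50 to under 100 FPKM, 24.4% of 1179 at 30 to under 50 FPKM, and 14.2% of 2702 at 10 to under 30 FPKM. Counting error is larger at those lower levels, and its part in the lower shares was not tested.

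**Figure D1:**
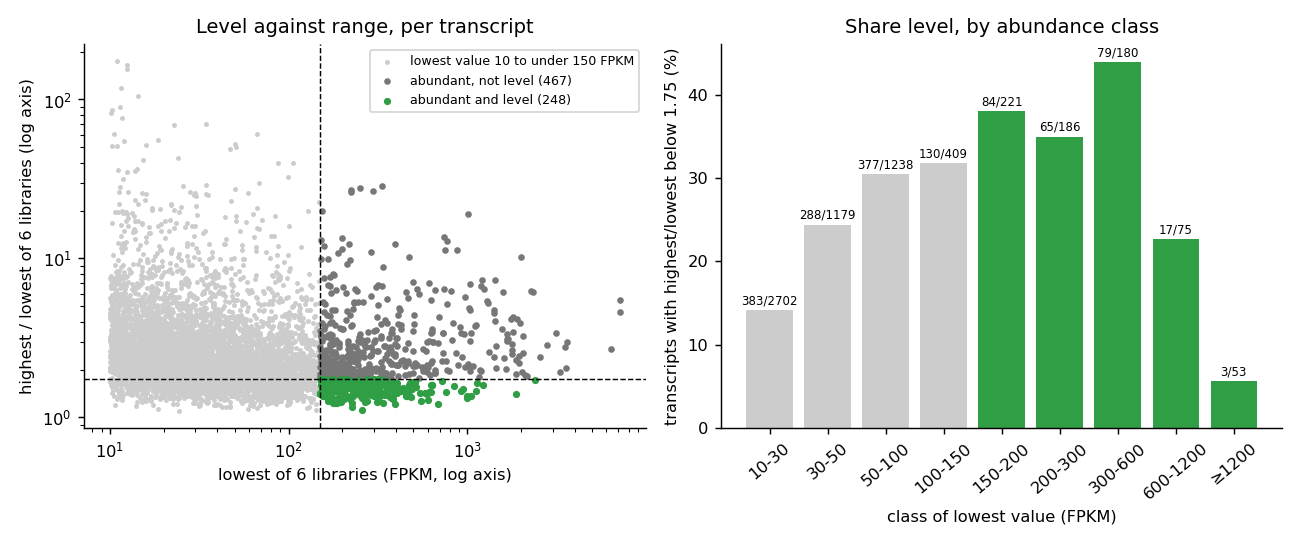
Left, each point is a transcript whose lowest library holds at least 10 FPKM, with that lowest value (log axis, FPKM) against the ratio of its highest to its lowest library (log axis); dashed lines mark 150 FPKM and the ratio limit. Right, bars give the percentage of transcripts under the ratio limit in each class of lowest value, with the counts above them; the share was 43.9% at 300 to under 600 FPKM and 5.66% at 1200 FPKM or more.

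The members were spread over moderate levels. Their mean over the 6 libraries ran from 178.3 to 2918 FPKM with a median of 319 FPKM, against a median of 519 FPKM for the 467 abundant transcripts that were not level. A mean under 300 FPKM was found for 117 members, 300 to under 1000 FPKM for 120, and 1000 FPKM or more for 11.

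Together the members held a nearly constant share of all FPKM in 5 of the 6 libraries. They made up 9.33%, 9.27% and 9.24% in drought 1, 2 and 3, and 9.48%, 9.57% and 7.53% in control 1, 2 and 3. The drought libraries averaged 9.28% ± 0.042 and the controls 8.86% ± 1.16 (SD, n = 3 each), and control 3 alone lay below the rest. The 467 other abundant transcripts held 43.4%, 39.2% and 45.3% in drought 1, 2 and 3, and 44.1%, 43.5% and 57.9% in control 1, 2 and 3. Control 3 was thus low for the level set and high for the other abundant transcripts, and a relative unit ties the 2 shares together.

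The spread of a member was measured as the coefficient of variation (CV), the SD divided by the mean. Over all 6 libraries the members' CV ran from 3.72% to 24.9% with a median of 16.1%, well above the counting error. It was under 10% for 20 members (8.06%) and under 15% for 99. Among the 467 other abundant transcripts the CV ran from 18.4% to 131%, with a median of 35.6%, and the median over all 9317 transcripts with at least 1 FPKM in 3 libraries was 36.7%. These differences follow from the rule.

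Within the groups, members spread to a similar degree after drought and under watering. The CV within the 3 drought libraries had a median of 13.1% (range 1.10% to 32.3%), and the CV within the 3 controls a median of 12.1% (range 0.835% to 32.1%). The drought CV was the higher for 124 members and the control CV for the other 124. Both were under 10% for 26 members. The other abundant transcripts had median CVs of 26.2% within drought libraries and 21.2% within controls. The control CVs rest on a closely spaced pair, since the median member differed 1.03-fold between controls 1 and 2, but 1.22-fold between controls 1 and 3 and 1.24-fold between controls 2 and 3. Among the drought libraries the median difference was 1.17-fold between 1 and 2, 1.22-fold between 1 and 3, and 1.11-fold between 2 and 3.

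**Figure D2:**
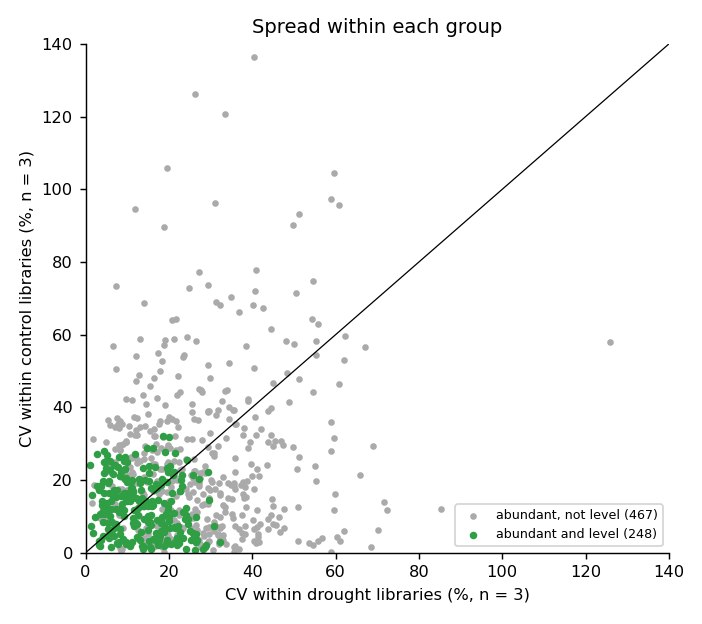
Each point is a transcript at 150 FPKM or more in all 6 libraries, with its coefficient of variation within the 3 drought libraries on the horizontal axis and within the 3 control libraries on the vertical axis (both in %); the line marks equal values. The 248 level transcripts reach at most 32.3% and 32.1% on these axes and fall evenly on the 2 sides of the line, 124 on each.

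Between the groups, the means of members lay close together, as the rule requires. The drought and control means were a median of 11.9% of the overall mean apart (range 0.00272% to 44.5%), under 10% apart in 105 members (42.3%) and under 5% apart in 58. Other abundant transcripts had a median gap of 46.6%. The ratio of drought mean to control mean ran from 0.658 to 1.57 among members with a median of 0.993, and the drought mean was the higher in 119 members and the lower in 129. The share of a member's sum of squares (log2 FPKM) that lay between groups had a median of 19.5%, against 55.8% in the other abundant transcripts. It exceeded 50% in 58 members, for which the gap between groups made up most of what variation they had. That count was not made for other transcripts. Spread among libraries alone also puts some of the sum of squares between groups, so nothing is read from the count.

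This balance of directions moved with the scaling of the libraries. With every library set to the same FPKM sum the drought mean was higher in 146 members and lower in 102, and with quantile normalization it was higher in 92 and lower in 156. The median log2 difference of the members, drought minus control, was -0.01 as deposited, 0.05 at equal sums and -0.09 with upper quartile factors. Over all tested transcripts it was 0.05, 0.11 and -0.02 under the same settings. The set as a whole had no direction that held under all of these settings.

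Drought and control values did not overlap in 53 of the 248 members, with drought higher in 33 and lower in 20, and the other 195 overlapped. Of the 9317 tested transcripts 41.8% did not overlap, 23.1% with drought higher and 18.7% with drought lower. In limma's moderated test over the same 9317 transcripts, on log2(FPKM + 1) with Benjamini-Hochberg adjustment, 1 of the 248 members passed at an adjusted p of 0.05, against 20.0% of all tested, and it was higher in drought, where 10.3% of all tested were called higher and 9.71% lower. At an unadjusted p of 0.05, 14 members passed, and the share of all tested transcripts at that limit was not computed. The rule limits the difference between groups, so nothing is read from these counts.

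The member that passed, Lo_f3p60_1085_transcript22497_g2, shows how far a transcript could shift and remain in the set. It had 294, 290.1 and 283 FPKM in drought 1, 2 and 3, against 181, 176 and 195 FPKM in control 1, 2 and 3. The 2 groups were tight and apart, with a ratio of means of 1.57, the highest of any member (log2 change 0.65, limma adjusted p = 0.0354). The call was lost, among other settings, with the replicate number as a block, when no member passed.

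The other members at the ends of the ratio of means had groups that did not overlap either. Lo_f5p60_1688_transcript16206_g1 had 372, 307 and 332 FPKM in drought libraries and 219, 216 and 226 FPKM in controls, a ratio of means of 1.53. Lo_f5p60_747_transcript29382_g2 had 169.8, 180.5 and 219 FPKM in drought libraries and 286, 291 and 288 FPKM in controls, a ratio of 0.658. Lo_f3p60_1122_transcript22307_g5 had 207, 183 and 179 FPKM in drought libraries and 272, 281 and 289 FPKM in controls, a ratio of 0.677. These 3 missed the test over all transcripts, with limma adjusted p of 0.0518, 0.0577 and 0.0600.

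How far steadiness in one group carried over to the other was examined by applying the rule to each group alone. In the 3 drought libraries 770 transcripts were at 150 FPKM or more and within the ratio limit, and in the 3 controls 757. Of the 770 level in drought, 249 had a control value under 150 FPKM and a further 98 were not level among controls. Of the 757 level in controls, 202 had a drought value under 150 FPKM and a further 132 were not level among drought libraries. Both groups were level for 423 transcripts, 54.9% of the drought list and 55.9% of the control list.

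Of these 423, 248 (58.6%) were also level over all 6 libraries and form the set. The other 175 (41.4%) were level in each group but did not stay under the ratio limit over all 6. Groups that overlap can also meet this. Among the 175 the drought mean was higher in 108, with a median ratio of 1.65 and a highest of 5.04, and lower in 67, with a median ratio of 0.626 and a lowest of 0.132. Of the 757 transcripts chosen on controls alone, 454 (60.0%) had a drought mean within 1.5-fold of the control mean, and 151 differed at least 2-fold. Of the 770 chosen on drought libraries alone, 425 (55.2%) had means within 1.5-fold and 189 differed at least 2-fold.

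The steadiest member was Lo_f2p60_1564_transcript17184_g4, of 1564 nt. It had 268, 259 and 276 FPKM in drought 1, 2 and 3, and 280.2, 288 and 276 FPKM in control 1, 2 and 3. All 6 libraries lay within a ratio of 1.11, and the groups did not overlap, though they were less than 1 FPKM apart at their nearest values. Its CV of 3.72% over the 6 libraries compares with 3.22% within drought libraries and 2.12% within controls. The means were 267 ± 8.62 FPKM and 281 ± 5.97 FPKM in drought and control libraries (SD, n = 3 each).

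The next members in order of CV ranged somewhat more widely, and the lowest library was a different one in each. Lo_f4p60_1013_transcript23616_g1 had 233, 253 and 242 FPKM in drought libraries and 265, 263 and 228 FPKM in controls (CV 6.28%), with control 3 lowest. Lo_f3p60_1184_transcript21138_g3, the most abundant of the 10 steadiest, had 838, 746 and 745 FPKM in drought libraries and 721, 690 and 757 FPKM in controls (CV 6.65%), with drought 1 highest. Lo_f54p60_1290_transcript19828_g1 had 453, 461 and 395 FPKM in drought libraries and 482, 458 and 435 FPKM in controls (CV 6.66%), with drought 3 lowest. The groups overlapped in all 3 of these transcripts.

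Lo_f12p60_1195_transcript20766_g1 and Lo_f7p60_1460_transcript18720_g2 were nearly constant among controls and wider after drought. The first had 197, 224 and 181 FPKM in drought libraries and 207, 211 and 203 FPKM in controls, a CV of 10.6% within drought libraries and 2.14% within controls. The second had 178, 188 and 218 FPKM in drought libraries and 201, 203 and 196 FPKM in controls, a CV of 10.8% within drought libraries and 1.86% within controls. In both, the control values lay inside the drought range.

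Lo_f8p60_1124_transcript6339_g1 had 242.5, 246 and 227 FPKM in drought libraries and 279, 262 and 256 FPKM in controls (CV 7.13%), every drought value below every control value. The last 3 of the 10 had control 3 as their lowest library. Lo_f4p60_848_transcript26769_g3 had 215, 203 and 228 FPKM in drought libraries and 211, 230.3 and 188 FPKM in controls (CV 7.51%). Lo_f2p60_1291_transcript19780_g5 had 237, 245 and 236 FPKM in drought libraries and 235, 233 and 196 FPKM in controls (CV 7.58%), every drought value above every control value, by less than 1 FPKM at the nearest. Lo_f3p60_561_transcript32053_g2, of 561 nt, had 207, 229 and 205 FPKM in drought libraries and 206, 212 and 180.4 FPKM in controls (CV 7.60%).

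**Figure D3:**
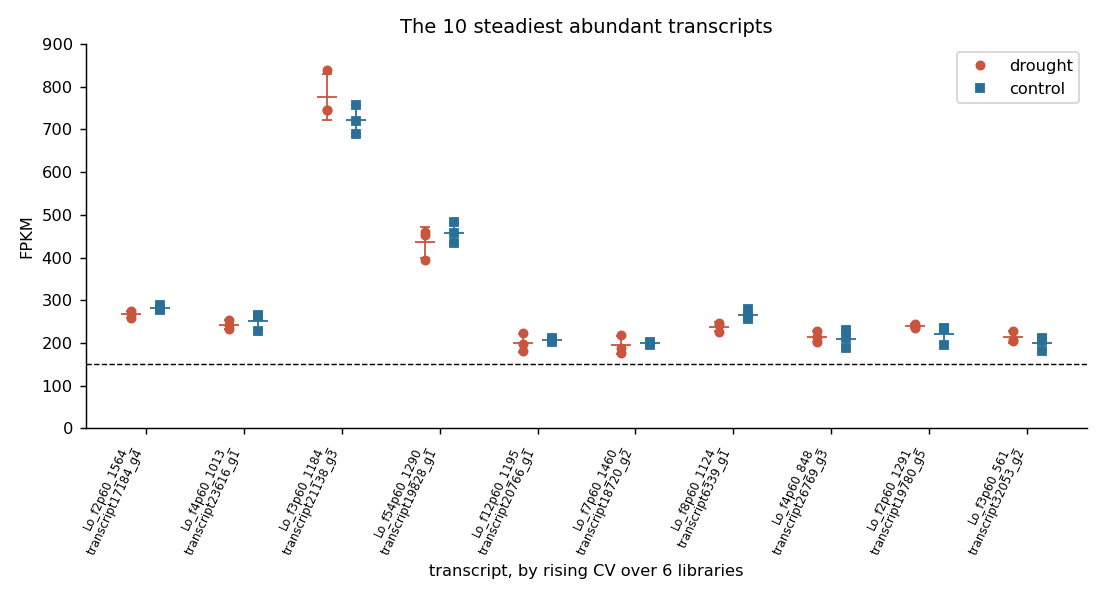
FPKM of the 10 level transcripts with the lowest coefficient of variation, in order of rising CV; points are single libraries (drought left and round, control right and square), bars give mean ± SD (n = 3 each), and the dashed line marks 150 FPKM. Of the 10, 8 lie between 178 and 288 FPKM, with Lo_f54p60_1290_transcript19828_g1 at 395 to 482 FPKM and Lo_f3p60_1184_transcript21138_g3 at 690 to 838 FPKM above them.

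The order of the steadiest transcripts depended on how the libraries were put on a common scale. All 10 stayed level under each of 5 other scalings, namely equal FPKM sums, upper quartile factors, median-of-ratios factors, quantile normalization and removal of the trend with length. None of the 10 was among the 10 lowest CVs under all of them. Between 1 and 3 of the 10 reappeared in the 10 steadiest of any other scaling. Lo_f2p60_1564_transcript17184_g4 moved from a CV of 3.72% as deposited to 14.5% with median-of-ratios factors, and Lo_f3p60_1184_transcript21138_g3 from 6.65% to 17.4%. Lo_f2p60_1291_transcript19780_g5 moved the other way, to 3.02% with upper quartile factors and 4.36% with the length trend removed, against 13.1% at equal sums.

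The largest differences between these scalings lay in control 3. Its factor relative to the other libraries, by which its values are divided, was 1.12 at equal FPKM sums, 0.833 with upper quartile factors and 0.781 with median-of-ratios factors. The other 5 libraries had factors between 0.939 and 1.10 under all 3. A transcript that looks flat as deposited has its control 3 value lowered by the first and raised by the other 2. The geometric mean of the members themselves, relative to the average library, was 1.07, 0.969 and 0.968 in drought 1, 2 and 3, and 1.03, 1.04 and 0.935 in control 1, 2 and 3.

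**Figure D4:**
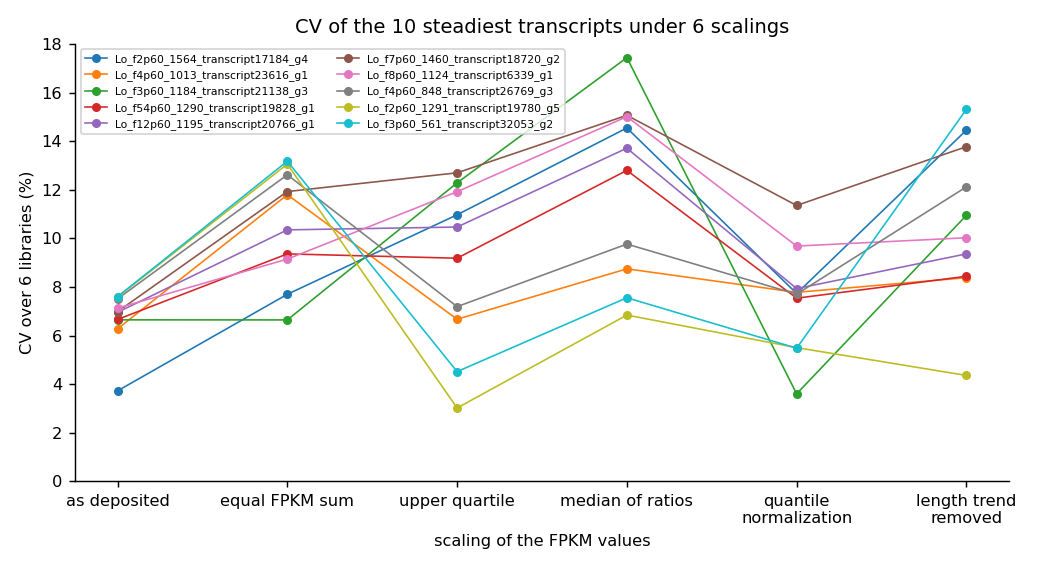
Coefficient of variation over the 6 libraries (%) of the 10 steadiest level transcripts, as deposited and under 5 other scalings; each line is a transcript. As deposited the 10 lie between 3.72% and 7.60%, and with median-of-ratios factors between 6.84% and 17.4%.

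A narrower set stayed level whichever scaling was used. Of the 248 members, 108 (43.5%) met the rule as deposited and under all 5 other scalings. The lists under single scalings held 209 to 308 transcripts and shared 174 to 214 with the members, which is 70.2% to 86.3% of the members and 66.9% to 86.1% of the other list. Ranked by the highest CV under any of the 6 scalings, the 108 were led by Lo_f4p60_1013_transcript23616_g1 (at most 11.8%) and Lo_f6p60_1154_transcript21528_g2 (at most 11.9%). They were followed by Lo_f2p60_702_transcript9916_g5 (at most 12.0%), a transcript with 1317, 1194 and 1026 FPKM in drought libraries and 1155, 1151 and 1001 FPKM in controls. This ranking and the transcripts it names were chosen after their values were seen.

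A measure that does not depend on library factors gave a related order. For each member the SD over libraries of its log2 ratio to every other member was averaged, as is done to rank reference genes for PCR, and a low value marks a transcript that keeps its ratio to the rest. It ran from 0.23 to 0.44 with a median of 0.30 over the 248. The lowest belonged to Lo_f9p60_1096_transcript22495_g1, which was 11th by CV (7.89%) and is named here after its values were seen. That transcript was not among the 108 members that met the rule under every scaling. Of the 10 members with the lowest CV, 3 were among the 10 lowest by this measure and all 10 among the 50 lowest. The order is relative to the set, and a shift shared by its members would not show in it.

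The most abundant members were steady among controls in 3 of 5 cases and wider elsewhere. Lo_f2p35_1212_transcript20794_g1, the highest, had 4143, 3430.2 and 2407 FPKM in drought libraries and 2518, 2485 and 2524 FPKM in controls. Its controls agreed to a CV of 0.835%, the lowest of any member, while its drought libraries had a CV of 26.2%. Lo_f5p60_1293_transcript4643_g1 showed the same form, with 1870, 1219 and 1130.4 FPKM in drought libraries and 1378, 1381 and 1414 FPKM in controls. So did Lo_f20p60_1019_transcript23767_g2, with 1627, 1268 and 1115 FPKM in drought libraries and 1266, 1295 and 1353 FPKM in controls. In all 3, drought 1 was the highest library and drought 3 the lowest.

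In the other 2 of these 5, control 3 stood apart from controls 1 and 2. Lo_f2p60_911_transcript25534_g3 had 2492, 1990 and 2239 FPKM in drought libraries and 1896, 1863 and 2620 FPKM in controls, control 3 being the highest of the 6. Lo_f14p60_960_transcript24735_g1 had 1947, 1816 and 1395 FPKM in drought libraries and 1872, 1943.5 and 1221 FPKM in controls, control 3 being the lowest. Drought and control values overlapped in both.

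Single libraries set the extremes of the members unevenly. The lowest value of a member fell in control 3 for 94 of 248 (37.9%), in drought 3 for 59, in drought 2 for 40, in control 2 for 24, in drought 1 for 17 and in control 1 for 14. The highest value fell in drought 1 for 84 (33.9%), in control 2 for 47, in drought 3 for 41, in control 1 for 34, in control 3 for 27 and in drought 2 for 15. With control 3 left out, 400 of 804 abundant transcripts (49.8%) met the rule, and with drought 1 left out 348 of 746 (46.6%). Leaving out any library can only add transcripts to the set, and control 1 or 2 added the fewest (253 and 258 in all).

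Members were of middling length, and long transcripts were scarce among them as among abundant transcripts in general. The length, taken from the number in the identifier, ran from 477 to 2618 nt with a median of 1078 nt, close to the 1057 nt of the 467 other abundant transcripts and below the 1231 nt of all tested ones. A length of 2000 nt or more was found in 16 members (6.45%), in 25 other abundant transcripts (5.35%) and in 1421 tested transcripts (15.3%). By class, 40 of 151 abundant transcripts under 800 nt were level (26.5%), 118 of 304 at 800 to under 1200 nt (38.8%), 57 of 167 at 1200 to under 1700 nt (34.1%) and 33 of 93 at 1700 nt or over (35.5%). The class of 800 to under 1200 nt held 47.6% of the members and 27.6% of all 12228 transcripts. Lengths were not used by the rule, but FPKM is computed from length, and transcripts are not independent, so these shares are given without a test.

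Even within the level set, libraries differed by length. In members of 1700 nt or over, the median log2 deviation from a transcript's own mean was 0.07, 0.09 and 0.04 in drought 1, 2 and 3, and -0.01, 0.05 and -0.29 in control 1, 2 and 3. In members under 800 nt it was 0.09, -0.23 and -0.18 in drought 1, 2 and 3, and 0.17, 0.13 and 0.01 in control 1, 2 and 3. Control 3 was low for long members, and drought 2 and 3 were low for short ones. With a smooth trend of level on length removed from each library, 308 of 745 abundant transcripts (41.3%) met the rule, including 206 of the 248. The part of length in the choice of members beyond this was not tested.

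**Figure D5:**
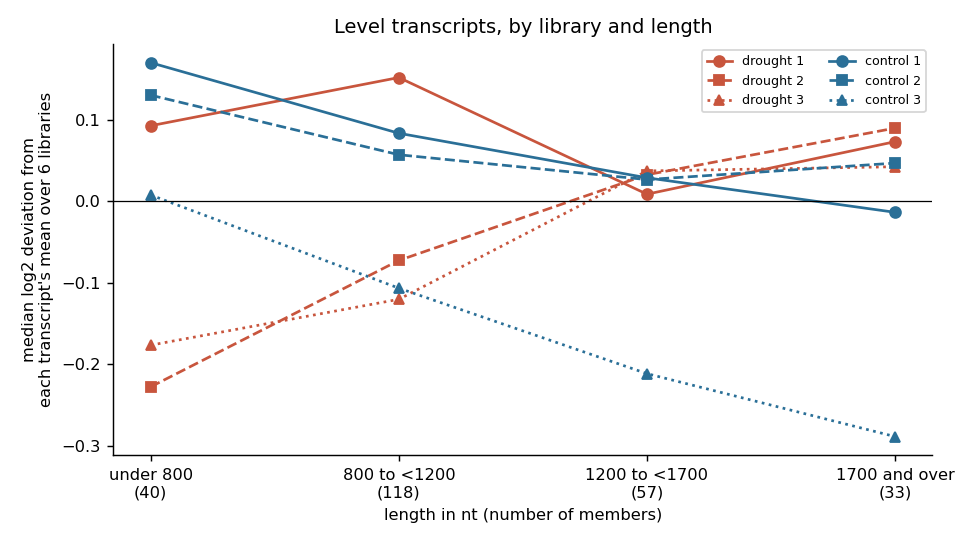
Median log2 deviation of the level transcripts from their own mean over the 6 libraries (vertical axis), by length class in nt (horizontal axis, number of members in brackets), with a line for each drought and control library. Control 3 runs from 0.01 under 800 nt to -0.29 at 1700 nt and over, and drought 2 from -0.23 to 0.09.

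The 2 shortest members were low in drought 2 and 3, and the 2 longest were not lowest in control 3. Lo_f5p60_477_transcript11490_g1, of 477 nt, had 509, 428 and 433 FPKM in drought libraries and 637, 627 and 483 FPKM in controls. Lo_f100p60_485_transcript31664_g1, of 485 nt, had 745, 536 and 509 FPKM in drought libraries and 832, 796 and 845 FPKM in controls. Drought 2 and 3 were the 2 lowest libraries in both. Lo_f2p29_2568_transcript316_g1, of 2568 nt, had 169, 249 and 252 FPKM in drought libraries and 233, 242 and 211 FPKM in controls, with drought 1 lowest. Lo_f2p60_2618_transcript280_g1, of 2618 nt, went against the trend of control 3, with 355, 321 and 332 FPKM in drought libraries and 284, 303 and 454 FPKM in controls. Its CV of 17.6% as deposited became 56.8% once the length trend was removed.

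The number after f in the identifiers was also compared. In PacBio long-read consensus names of this form it usually counts the full-length reads behind a consensus, though the sources used here do not define it. It was 10 or more in 44 members (17.7%), in 102 of the 467 other abundant transcripts (21.8%) and in 493 of the 9317 tested ones (5.29%). The median was 4 in members, 4 in other abundant transcripts and 2 in all tested ones, so members and other abundant transcripts lay close together on this readout.

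The limits of the rule cut through a continuous distribution. Just inside the limit of 150 FPKM were Lo_f4p60_740_transcript28882_g1, with a lowest value of 150.05 FPKM, and Lo_f2p60_1419_transcript3841_g1, with 150.22 FPKM. Just outside were Lo_f27p60_990_transcript7022_g1, with 149.97 FPKM, and Lo_f4p60_1049_transcript23041_g2, with 149.91 FPKM. Just inside the ratio limit were Lo_f5p60_799_transcript27705_g1 and Lo_f3p60_927_transcript7705_g3, with ratios of 1.7448 and 1.7443. Just outside were Lo_f2p60_1600_transcript3146_g3, with 1.7505, and Lo_f2p60_770_transcript9122_g1, with 1.7623.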

How the data were processed

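The deposited tables, 1 for each library, list FPKM values (the unit per the file headers, to 2 decimals) of 12228 transcripts. The submitters' processing notes list HTSeq 0.6.0, HISAT2 2.1.0 and Bowtie2 2.2.3. What each tool did, how fragments were counted and filtered, and the FPKM formula were not given in the sources used here. Groups and replicate numbers came from the sample titles. The members, the rule and the measures were chosen with earlier results of these data known.

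The rule, CVs and scalings were computed in Python 3.11.15 with pandas 2.3.3. Scaling factors had a geometric mean of 1. The length trend was a polynomial of degree 3 in log length fitted to each library's log2 deviations. The comparison of drought with control used limma 3.58.1 in R 4.3.3 on log2(FPKM + 1) with a mean-variance trend and no block, for 9317 transcripts with at least 1 FPKM in at least 3 libraries. A log2 change on this scale understates the change of low transcripts. The fit was tested on simulated data. It called 4 of 50 transcripts changed 2-fold, 24 of 50 changed 4-fold, 38 of 50 changed 8-fold and 45 of 50 changed 16-fold. Of 9117 unchanged ones it called 10. In this simulation small changes were seldom called, so a missed call does not mark a transcript as unchanged. The simulated noise was independent for each transcript and library, without shifts shared across a library. Changed transcripts were drawn without regard to membership, so these rates are not those of the members. Depth was estimated from the steps of low values at the identifier's length minus an offset of 280 nt. Too few values came out whole for a test of reads.

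Replicate numbers were not taken to pair libraries, since the labels describe no pairing. Deviations of same-numbered libraries correlated at -0.15, 0.23 and -0.03. With 3 libraries in a group these values cannot settle whether libraries were paired. Transcripts were named by rule: the 10 lowest CVs, the 5 highest means, the 2 longest and 2 shortest, the 2 highest and 2 lowest ratios of drought to control, and those nearest each limit. The rule also named any transcript among the 10 lowest CVs under every scaling, which none was. The transcripts named for the lowest CV over all scalings together and for the steadiest ratio to other members were chosen after their values were seen.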

Additional observations from a re-analysis of the deposited data

How the results depend on the processing

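The 248 level transcripts became 378 and 164 with a lowest value of 100 and 200 FPKM, and 112 with a ratio below 1.5. They stayed within 1.5 times in 12 of 16 alternatives, and leaving out each library gave 253 to 400, the highest without control 3. The share level among abundant transcripts, 34.7%, was 30.6% at equal FPKM sums, 41.3% with the length trend removed, 15.7% with a ratio below 1.5 and 48.7% below 2, and 35.3% to 49.8% with each library left out. Fewer libraries or a wider limit can only raise the count of level transcripts, and the cause of the shifts under the scalings was not tested.

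Over all transcripts the 1860 limma calls became 2863 with the length trend removed and 874 with controls 1 and 2 averaged, and 701 (without drought 2) to 2571 (without control 3) with each library left out. A fit that took the replicate number as a block, although the labels describe no pairing, called 1428 transcripts and no member. Members called ranged from 0 to 15 of 248 over these settings. The highest count (6.05%) came without control 3, where 2571 of all 9210 tested transcripts were called. The rule limits the difference between groups, so nothing is read from the counts of members. Of 372 recomputed drought to control ratios of named transcripts, 354 moved by less than the SD within groups. Leaving out a library or averaging controls 1 and 2 moved none by more, and with 3 libraries in a group it hardly could. All 18 larger moves came under the scalings. By the estimated depths the weakest member value in a library rested on 610 to 800 fragments. Transcripts below 150 FPKM and the calls over all tested transcripts include lower values, and the part of depth in them was not tested.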
